A study of Mus musculus with 9 samples.

Results

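The response of old mouse bone marrow to long-term castration was described from 3 dual-colour expression arrays of old mice, out of 9 arrays in the study. The 3 arrays were taken by their labels, which name bone marrow of old mice, and no measured value was used to choose them. Each array carried cDNA of 1 castrated C57BL/6 mouse and 1 matched sham-operated C57BL/6 mouse, so that every value is a ratio within 1 pair of mice. The old mice were 59 weeks of age and had been castrated at 7 weeks. The comparison groups were young marrow and young bone, with 3 arrays each, from mice of 17 weeks that were also castrated at 7 weeks or sham-operated. No other genotype or agent is named. The design text gives a separate mouse pair for each replicate, and leaves unstated whether the young bone and marrow arrays share mouse pairs. It names the separation of marrow from bone only for the young mice, and the extraction protocol speaks of pulverized bone throughout, so it is not stated if the old specimens contain bone. Only ratios were used here, and a ratio carries no level, so the marrow label could not be checked against the levels of marker genes.

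Bone marrow is the site where B lymphocytes and granulocytes are made. Early B cells grow there in response to interleukin-7 and assemble a pre-B cell receptor and then a B cell receptor. They follow a programme set by transcription factors such as Foxo1 and Bach2. Androgens restrain B cell production in the marrow, and loss of androgen is known to enlarge the B cell pool. With age the marrow cavity also gains fat cells, which store lipid and express genes of fatty acid handling.

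On replicates 1 and 3 the castrated mouse was labelled with Cy5, and on replicate 2, the dye-swapped array, with Cy3. The deposited values were read as log2 ratios, since the log base was not given in the sources used here. The direction of the ratio was not given either, so 2 readings were carried side by side. Under the castrated-over-sham reading the values stand as deposited, which is the likely reading because the labels describe every array as castrated against sham. The channel reading takes each value as Cy5 over Cy3 and multiplies each dye-swapped array by -1, replicate 2 among the old ones. In the text below, a gene rose or fell only where it passed the test under the castrated-over-sham reading, and its value under the channel reading is given beside it. Fitted values come from a limma model of all 9 arrays with 1 mean per group and a common dye term. Adjusted p values are by Benjamini-Hochberg over the 8885 features tested, with a threshold of 0.05. Channel values printed for a gene are fitted values as well. In that fit the dye term takes up any ratio that all groups share as deposited. A channel value near 0 is thus partly built in for genes with like values in old and young. For Vpreb3 the mean of the turned old values was 0.52, against a fitted 0.16. Without a dye term the channel reading also had 0 features past the threshold in old marrow.

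The old arrays held 10025, 9170 and 8981 values on replicates 1, 2 and 3. Replicate 1 stood apart by its spread, with an SD across features of 0.4545 against 0.2486 and 0.2219 on the other old arrays and at most 0.2939 on any young array. It held 464 features (4.63%) at 1 or more in size, against 27 (0.294%) on replicate 2 and 35 (0.39%) on replicate 3. Of the features with a value on all 3 old arrays, 364 lay at 1 or more in size on replicate 1 and within 0.5 of 0 on the other arrays, 357 of them above 0. Such features numbered 4 for replicate 2 and 6 for replicate 3. Only 39.3% of the 364 carried a gene name, against 73.6% of all 8382 features tested that had a value on every old array, and their median was 1.17, 0.29 and 0.00 on replicates 1, 2 and 3. The deposited values correlated across features at 0.559 between replicates 1 and 2, 0.189 between 1 and 3 and 0.276 between 2 and 3. Turning replicate 2 for the channel reading makes the values that involve it -0.559 and -0.276. Intensities were not used here, so the signal over background of any feature is unknown, and precision is limited by having 3 arrays.

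**Figure D1:**
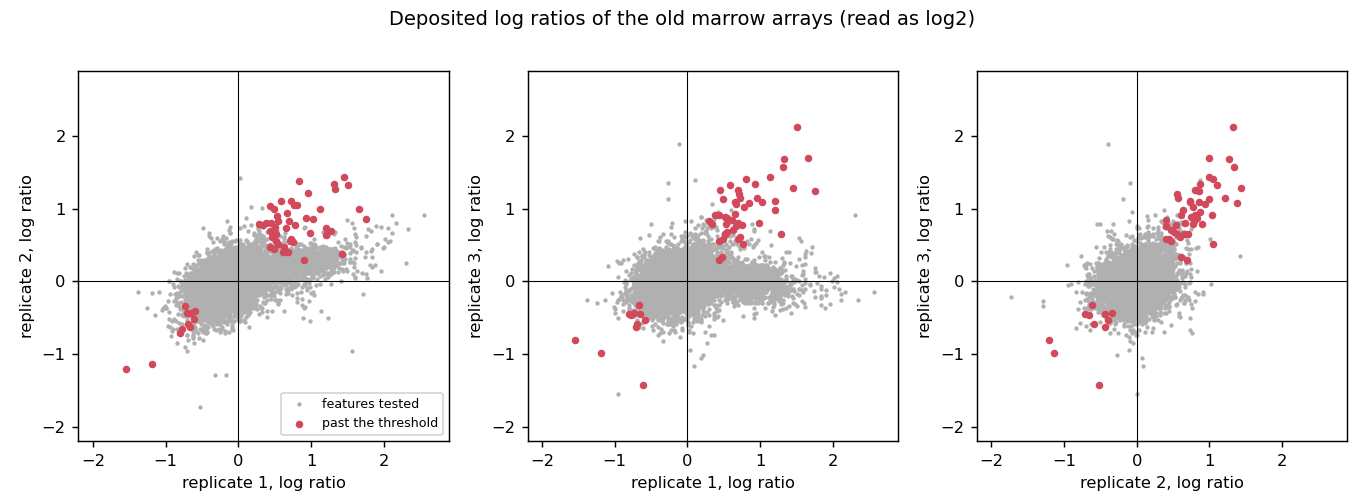
Each panel plots the deposited log ratio (read as log2) of every tested feature on one old array against another, with the features that passed the limma test as deposited in red. Replicate 1 has a broad arm of features near and above 1 that lie close to 0 on replicate 3, and the 65 red features lie on one side of 0 on all arrays that have a value.

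Under the castrated-over-sham reading 65 of 8885 features (0.732%) passed the limma threshold in old marrow, 54 above 0 (0.608%) and 11 below 0 (0.124%). They covered 46 named genes, of which 36 rose and 10 fell, and 13 features without a gene name. The rising features had fitted values of 0.48 to 1.65 with a median of 0.80, and the falling ones had sizes of 0.46 to 1.21 with a median of 0.63. Each of the 65 had one sign on every old array that measured it. An unadjusted p under 0.05 was found for 1615 features, with 444 expected if no feature responded. The count rested on the arrays entered: leaving out replicate 1, 2 or 3 of the old mice gave 44, 10 and 1332. Of the 52 called features with a gene name, 30, 9 and 52 then kept the call. Those 9, which kept it without the dye-swapped array, were features of Strn3, Scd1, Xist, Vpreb3, Aff3, Pou2af1, Malat1, Igfbp5 and Cd79b, so every other gene below that rose or fell lost its call there. With the replicate number as a block 69 features passed, while Lef1 (limma adjusted p = 0.070), Six4 (0.072), Gli2 (0.081), St6gal1 (0.053) and Glo1 (0.054) no longer did. Rab11fip4 (0.063), Ivns1abp (0.063) and single features of Fcrla (0.053) and Foxo1 (0.10) lost their calls there too. Without one young array at a time it was 29 to 53, which falls by over 1.5 times without young bone replicate 1 (33) or 3 (43) and without young marrow replicate 1 (30), 2 (29) or 3 (41). The channel reading gave 0 calls (0%) by limma, 203 unadjusted p values under 0.05 and a lowest adjusted p of 0.967. Of the 65 features, 45 had the same sign under the channel reading, where their median size in the called direction was 0.09 against 0.77.

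**Figure D2:**
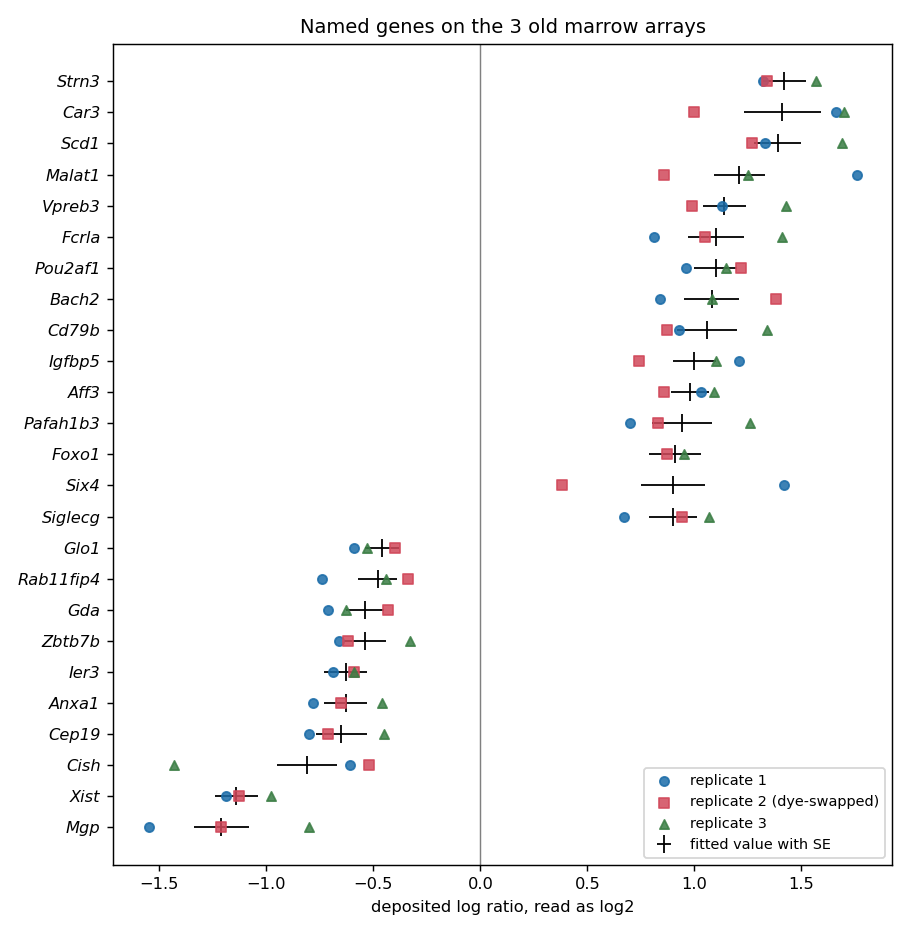
Points give the deposited log ratio (read as log2) of each old array for the named genes that rose the most and for all 10 that fell, and black bars give the fitted value with its standard error. The genes from Strn3 to Siglecg lie above 0 and those from Glo1 to Mgp below 0 on every array with a value, while Foxo1 and Six4 have a value on 2 arrays.

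The list with the most genes that rose was that of the B lymphocyte lineage. Like all lists here it was chosen with earlier results of these data known, so its counts are a description and not a test. The B lineage list held 18 measured genes, of which 8 rose and 0 fell, against 36 (0.754%) and 10 (0.209%) of all 4775 named genes tested. The list median was 0.66, beside -0.06 for all named genes, and it was 0.49, 0.65 and 0.51 on replicates 1, 2 and 3. Of the 17 genes with a value on all 3 arrays, 14 lay above 0 on each, a share of 82.4% beside 12.9% for all named genes. Under the channel reading the list median was 0.01. A rise in the share of B cells and a rise in their RNA per cell cannot be told apart in bulk marrow, and the same holds for every cell type below.

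Vpreb3, a partner of the immunoglobulin heavy chain in early B cells, stood at 1.13, 0.99 and 1.43 on replicates 1, 2 and 3. All 3 arrays lay far above 0 and overlapped with young marrow (1.11, 1.0 and 1.40) and young bone (1.18, 1.14 and 0.85). The fit gave a rise of 1.14 (SE 0.10, n = 3 arrays, limma adjusted p = 0.00046), and 0.16 under the channel reading. Cd79b, which carries the signal of the B cell receptor, stood at 0.93, 0.87 and 1.34 and rose by 1.06 (limma adjusted p = 0.0062, channel reading 0.15). Il7r, the receptor through which early lymphocytes receive interleukin-7, stood at 0.78, 0.78 and 1.03 and rose by 0.84 (SE 0.09, limma adjusted p = 0.0023, channel reading 0.04). Blk, a Src-family kinase of B cells, stood at 0.53, 0.90 and 0.79 and rose by 0.77 (channel reading -0.12), and the chromatin protein Cecr2, also on the list, stood at 0.76, 1.05 and 0.51 and rose by 0.80 (channel reading -0.22). These genes gave values between 0.51 and 1.43 on every old array.

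Of the transcription regulators on the B lineage list, Pou2af1 and Bach2 rose, while Bcl11a, a factor needed for lymphoid development, stood at 0.27 and 0.00 in its features (limma adjusted p = 0.24 and 0.98). Pou2af1, the B cell coactivator of octamer-binding factors, stood at 0.96, 1.22 and 1.15 and rose by 1.10 (SE 0.10, limma adjusted p = 0.00054, channel reading -0.02). Bach2, a repressor that holds B cells short of the plasma cell state, was measured by 2 features, at 0.84, 1.38 and 1.08 and at 0.43, 1.04 and 0.92. Both rose, by 1.08 and 0.79 (channel reading -0.20 and -0.19), and both stood lowest on replicate 1. The next 5 genes are not on that list. They passed and are placed here for a role in lymphoid cells, and some were chosen after their values were seen. Genes that passed and are not described here are Sbk1, Ampd2, Glcci1, Fbxl12, Tcaf1, Bfsp2, Ivns1abp and Dpp4. Foxo1, a forkhead factor needed for early B cell development, had 4 features, of which 3 rose, by 0.91, 0.85 and 0.48 (channel reading 0.04, 0.05 and -0.03), while the fourth stood at 0.48 with a limma adjusted p of 0.067. Foxp1, another forkhead factor of B cell development, rose by 0.77 on the 2 arrays that measured it (0.61 and 0.92, channel reading 0.15), and its other features stood at 0.61 and 0.35 without passing. Aff3, a nuclear protein with high expression in lymphoid cells, rose in 2 of 5 features, by 0.98 (1.03, 0.86 and 1.09) and 0.61 (channel reading 0.21 and 0.07), while the others stood at 0.46, 0.13 and -0.02. Lef1, a Wnt pathway factor of early B and T cells, rose by 0.71 from 2 arrays (0.69 and 0.81, channel reading -0.06). Sox4, which early B cells require, rose by 0.56 (0.55, 0.52 and 0.68, channel reading 0.00). The other Sox4 feature stood at 0.67 without passing (limma adjusted p = 0.067).

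Among the remaining members of the list, Fcrla, a B cell protein related to Fc receptors, rose in both features, by 1.10 (0.81, 1.05 and 1.41) and by 0.70 (0.38, 0.81 and 0.92), with replicate 1 lowest in each (channel reading 0.03 and -0.09). Blnk, the adaptor of B cell receptor signalling, stood at 0.45, 0.25 and 0.34 and the kinase Btk, which acts in the same pathway, had a fitted value of 0.08, and neither passed (limma adjusted p = 0.21 and 0.62). Siglecg, Swap70 and St6gal1 are off the list, and are placed here because they passed and have a link to B cells. Siglecg, an inhibitory lectin of B cells, rose by 0.90 from values of 0.67, 0.94 and 1.07 (channel reading 0.01). Swap70, a B cell protein that binds phosphoinositides, rose by 0.60 (0.51, 0.67 and 0.65, channel reading 0.09), and St6gal1, which makes the sialic acid ligand of Cd22, rose by 0.66 (0.29, 0.79 and 0.83, channel reading -0.09). Cd22, a member of the list, stood at 0.59 and 0.51 on the 2 arrays that measured it, with a limma adjusted p of 0.16.

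Other members of the list did not pass. Cr2, the complement receptor of mature B cells, stood at 0.40 (limma adjusted p = 0.15), and Fcer2a, the low-affinity IgE receptor of mature B cells, at 0.38 and 0.28 in its features. Ms4a1, the CD20 antigen, stood at -0.27, 0.42 and -0.15 and thus on both sides of 0, with a fitted value of 0.01. Cd24a, which marks immature B cells and other young blood cells, stood at -0.13 and -0.11. Bank1, a B cell scaffold protein, spread from 0.11 on replicate 1 to 1.40 on replicate 3 (0.78, limma adjusted p = 0.12). Among 6 plasma cell and immunoglobulin genes 0 passed by limma and 2 had an unadjusted p under 0.05. The immunoglobulin gene Ighg3 spread from 0.03 to 1.42 over the old arrays (fitted 0.85, limma adjusted p = 0.22), with the high value on the dye-swapped replicate 2, and Jchain, which joins immunoglobulin chains, stood at -0.22, 0.59 and 0.15.

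**Figure D3:**
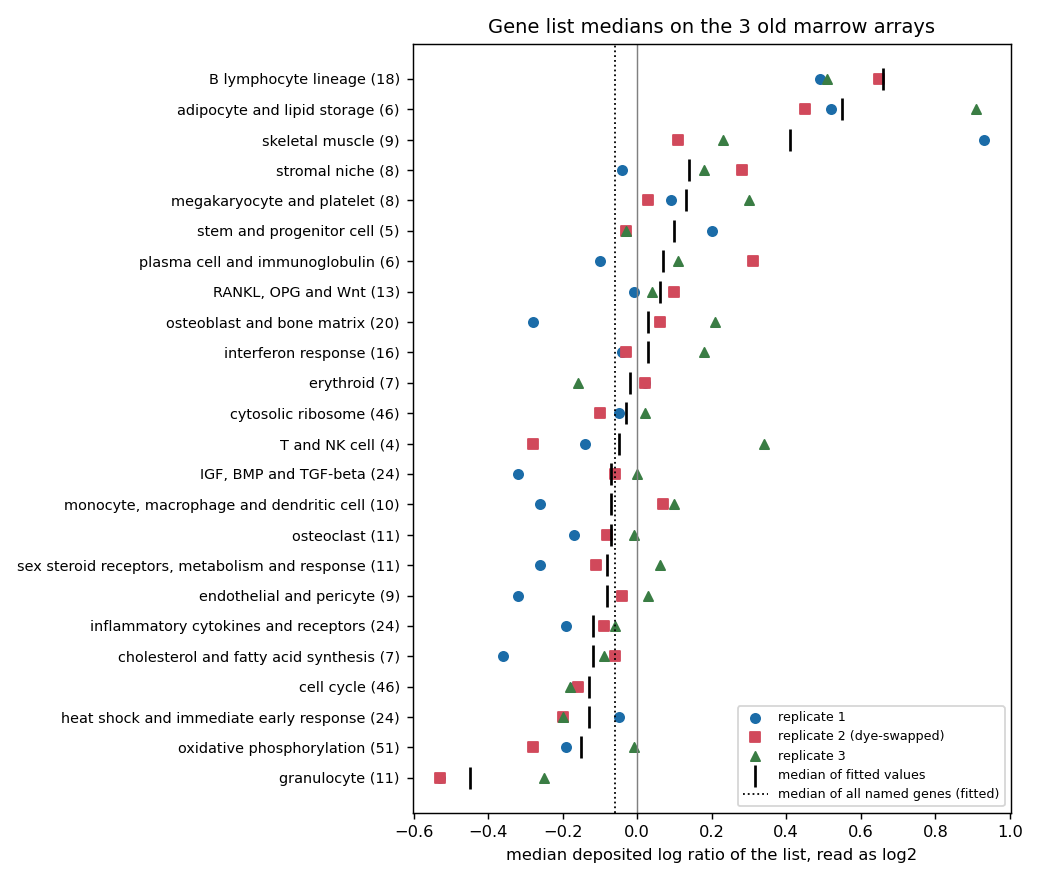
For each gene list with at least 4 measured genes (number in brackets), coloured points give the median deposited log ratio (read as log2) on each old array and black ticks the median of the fitted values under the castrated-over-sham reading. The B lineage and adipocyte lists lie above 0 and the granulocyte list below 0 on all 3 arrays, and the skeletal muscle list is at 0.93 on replicate 1 against 0.11 and 0.23.

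Promoter windows of RefSeq (GRCm38.p6, 250 bases before to 50 after the transcript start) were matched for 11 of the 15 genes that rose the most and 8 of the 10 that fell. Each was searched on both strands for the EBF1 core (TCCC and GGGA separated by any 2 bases), the E-box CAGGTG, the PU.1 core GAGGAAG, the C/EBP site TTGCNNAA and the steroid receptor hexamer AGAACA. Among the 11 genes that rose, each motif was found in 1 gene: the EBF1 core in Foxo1, the E-box in Fcrla, the PU.1 core in Siglecg, the C/EBP site in Pou2af1 and the hexamer in Bach2. Over 27025 genes with a window the shares were 1.06%, 22.6%, 15.4%, 12.2% and 21.3% in the same order. Among the 8 genes that fell, the E-box was found in Gda and Zbtb7b, the PU.1 core in Ier3 and Zbtb7b and the C/EBP site in Anxa1 and Gda, and the EBF1 core and the hexamer in 0. These are letter matches and no sites of binding. As examples of these matches, 3 windows of genes that rose and 1 of a gene that fell are shown 5′ to 3′ along the gene's strand, with the motif in capitals and no overlapping matches:
Foxo1 promoter, chr3:52268087-52268386, plus strand: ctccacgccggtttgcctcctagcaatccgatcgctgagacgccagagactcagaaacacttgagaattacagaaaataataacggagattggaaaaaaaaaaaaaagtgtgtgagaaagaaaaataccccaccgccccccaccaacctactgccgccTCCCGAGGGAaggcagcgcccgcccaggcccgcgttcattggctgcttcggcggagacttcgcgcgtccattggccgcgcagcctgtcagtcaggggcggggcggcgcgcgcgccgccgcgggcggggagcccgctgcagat
Fcrla promoter, chr1:170927534-170927833, minus strand: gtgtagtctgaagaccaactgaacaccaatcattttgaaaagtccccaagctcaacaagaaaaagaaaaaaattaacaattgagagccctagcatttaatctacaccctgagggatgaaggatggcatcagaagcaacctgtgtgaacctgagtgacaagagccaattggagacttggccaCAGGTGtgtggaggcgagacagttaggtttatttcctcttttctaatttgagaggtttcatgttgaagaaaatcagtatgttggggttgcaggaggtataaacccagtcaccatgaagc
Bach2 promoter, chr4:32417185-32417484, plus strand: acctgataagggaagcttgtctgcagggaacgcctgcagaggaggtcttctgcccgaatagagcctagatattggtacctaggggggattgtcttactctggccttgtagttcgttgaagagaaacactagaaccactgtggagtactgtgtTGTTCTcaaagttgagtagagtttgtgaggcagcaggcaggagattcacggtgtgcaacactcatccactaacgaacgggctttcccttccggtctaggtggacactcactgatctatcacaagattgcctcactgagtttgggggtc
Anxa1 promoter, chr19:20390622-20390921, minus strand: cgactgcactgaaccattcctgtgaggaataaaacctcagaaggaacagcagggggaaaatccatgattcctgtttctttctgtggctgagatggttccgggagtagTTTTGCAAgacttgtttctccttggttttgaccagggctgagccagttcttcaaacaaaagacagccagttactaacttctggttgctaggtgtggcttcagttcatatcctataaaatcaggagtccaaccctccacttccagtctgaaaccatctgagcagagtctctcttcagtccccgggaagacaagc

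Genes of lipid storage were the next group. Of 6 measured adipocyte and lipid storage genes 3 rose and 0 fell, beside 0.754% and 0.209% of all named genes, with a list median of 0.55 (0.52, 0.45 and 0.91 on replicates 1, 2 and 3) and 0.17 under the channel reading. Scd1, which desaturates fatty acids, stood at 1.33, 1.27 and 1.69. All 3 old arrays lay above every young array, where young marrow gave 0.92, 0.28 and 0.78 and young bone 0.86, 0.90 and 0.91. The fit gave a rise of 1.39 (SE 0.11, limma adjusted p = 0.00046), a ratio of 2.61 if the logs are to base 2, and 0.27 under the channel reading. Fabp4, the fatty acid carrier of fat cells and endothelium, stood at 0.71, 0.56 and 1.2 and rose by 0.76 (limma adjusted p = 0.0098, channel reading 0.30).

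Car3, a carbonic anhydrase abundant in fat and in slow muscle, stood at 1.66, 1.0 and 1.70 and rose by 1.41 (SE 0.18, limma adjusted p = 0.0048, channel reading 0.50). It was lowest on the dye-swapped replicate 2, and its old values lay above those of young marrow (0.16, 0.35 and 0.21) but overlapped with young bone (0.57, 1.61 and 0.81). The other lipid genes did not pass. Lpl, the lipoprotein lipase, stood at -0.05, 0.33 and 0.62, Dgat1, which makes triglyceride, at 0.33, 0.29 and -0.15, and Pnpla2, a triglyceride lipase, at -0.20, -0.15 and 0.24. Of the 7 measured genes of cholesterol and fatty acid synthesis Scd1 alone passed, and the list median was -0.12 (channel reading -0.11). Cyp51, a sterol demethylase, gave -0.54, -0.18 and -0.50 (limma adjusted p = 0.12) and Mvd, a mevalonate pathway enzyme, gave -0.65 and -0.40 on 2 arrays (0.13), while Acly, which makes cytosolic acetyl-CoA, gave -0.36, 0.03 and 0.00.

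Of 9 measured skeletal muscle genes 0 passed by limma, 4 were above 0 at an unadjusted p under 0.05 (beside 407 of 4775 named genes), and the list median was 0.93, 0.11 and 0.23 on replicates 1, 2 and 3. Ckm, the muscle creatine kinase, stood at 1.56, 0.42 and 0.55, Mylpf, a fast muscle myosin light chain, at 1.15, 0.42 and 0.50, and Mb, the muscle oxygen carrier myoglobin, at 1.70, 0.11 and 0.39. Replicate 1 was highest in all 3 genes. The list median fitted over the old arrays was 0.41 (channel reading 0.26), and 0.21 without old replicate 1, and the medians of young marrow and young bone were 0.03 and -0.51. The part of muscle RNA in the Car3 result was not tested. Without replicate 1 the values were 1.35 for Car3, 1.48 for Scd1 and 0.88 for Fabp4, with limma adjusted p values of 0.021, 0.0013 and 0.0049.

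Several genes outside these groups rose as strongly. Strn3, a striatin that scaffolds protein phosphatase 2A, stood at 1.32, 1.34 and 1.57, above all young arrays (0.46 to 1.2). It rose by 1.42 (SE 0.10, limma adjusted p = 0.00042, channel reading 0.19), a ratio of 2.67 if the logs are to base 2. The other Strn3 feature gave lower values, at 0.28, 0.34 and -0.03 (0.11, limma adjusted p = 0.77), so the value belongs to 1 feature and not to the gene as a whole. Pafah1b3, a subunit of a platelet-activating factor acetylhydrolase, stood at 0.70, 0.83 and 1.26 and rose by 0.94 (channel reading 0.07). Igfbp5, a binding protein for insulin-like growth factors made by marrow stroma and bone cells, rose in both features, by 1.0 (1.21, 0.74 and 1.10) and by 0.88 (1.28, 0.70 and 0.65), with 0.18 and 0.09 under the channel reading. Its old values overlapped with those of young marrow, which were 1.30, 1.32 and 1.14 in the first feature. Of the 8 measured stromal niche genes Igfbp5 alone passed. Cxcl12, the chemokine that holds progenitors and early B cells in the marrow, stood at 0.13, 0.28 and 0.41 (limma adjusted p = 0.30).

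Malat1, an abundant nuclear long noncoding RNA, stood at 1.76, 0.86 and 1.25 and rose by 1.21 (SE 0.12, limma adjusted p = 0.0014, channel reading 0.57). Its other features lay above 0 on every old array as well, at 0.94, 0.40 and 0.53 and at 2.30, 0.25 and 0.91, but did not pass (limma adjusted p = 0.065 and 0.086). Replicate 1 was highest and replicate 2 lowest in all 3 features. Spink5, a serine protease inhibitor of epithelia, stood at 0.98, 0.66 and 0.81 and rose by 0.77 (channel reading 0.30), and Plcb1, a phospholipase C, stood at 0.75, 0.54 and 0.78 and rose by 0.65 (channel reading 0.25) in 1 of 3 features. The others of Plcb1 stood at 0.27 and -0.03. Cd163, the haemoglobin scavenger receptor of macrophages, rose by 0.50 (0.47, 0.61 and 0.33, channel reading 0.00), the sole riser among 10 monocyte, macrophage and dendritic cell genes. H2-Eb1 of that list stood at 0.61, 0.46 and 0.74 (fitted 0.63, limma adjusted p = 0.052, channel reading 0.17) and just missed the threshold. The list median was -0.07. The homeobox factor Six4 (1.42 and 0.38) and the Hedgehog effector Gli2 (0.91 and 0.29) passed at 0.90 and 0.60 with a value on 2 old arrays (channel reading 0.52 and 0.31), high on replicate 1 and low on replicate 2. Without replicate 1 neither passed, with limma adjusted p values of 0.42 and 0.40.

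Among the genes that fell, Mgp, the matrix Gla protein that inhibits calcification, gave the largest fitted value. It stood at -1.55, -1.21 and -0.80, below every young array, where young marrow gave -0.14, -0.20 and -0.18 and young bone 0.13, 0.22 and -0.16. The fit gave a fall of 1.21 (-1.21, SE 0.13, limma adjusted p = 0.0018), and -0.23 under the channel reading. Without old replicate 2 the value was -1.27 (limma adjusted p = 0.063). Mgp was the only one of 20 measured osteoblast and bone matrix genes that passed. The list median was 0.03 (channel reading -0.07), with -0.28, 0.06 and 0.21 on replicates 1, 2 and 3, so the direction of the list differed between arrays. The collagen gene Col3a1 stood above 0 on every old array in its 3 features, at 0.36, 0.47 and 0.49, and did not pass.

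Xist, the noncoding RNA that silences an X chromosome, stood at -1.19, -1.13 and -0.98. The 3 arrays spanned a narrow range, below every young array (-0.17, -0.39 and -0.16 in young marrow, 0.07, 0.26 and -0.25 in young bone). Xist fell by 1.14 (-1.14, SE 0.10, limma adjusted p = 0.00046), with -0.19 under the channel reading, and it passed in all 19 alternative settings run for old marrow (adjusted p from 6.6e-05 to 0.031). The labels do not state the sex of the mice. Of the Y-linked genes tested, chosen after their values were seen, Eif2s3y stood at -0.23, 0.02 and -0.10, Kdm5d at -0.18, 0.07 and 0.28 and Uty at 1.01, 0.37 and 0.16, and 0 of these passed.

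The granulocyte list had the lowest median of the lists under the castrated-over-sham reading. Of 11 measured granulocyte genes 1 fell and 0 rose, and 8 were below 0 at an unadjusted p under 0.05, beside 576 of 4775 named genes. Of the 11, 10 were below 0 on all 3 arrays, a share of 90.9% beside 28.2% for all named genes, and the fitted values ran from -0.63 to -0.25. The list median was -0.45, with -0.53, -0.53 and -0.25 on replicates 1, 2 and 3, and 0.12 under the channel reading. Young marrow and young bone had list medians of -0.52 and -0.38 on the deposited values. Anxa1, the annexin A1 of neutrophils, stood at -0.78, -0.65 and -0.46 and fell by 0.63 (-0.63, limma adjusted p = 0.026, channel reading -0.01).

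The granule proteins did not pass. Mmp8, the neutrophil collagenase, spread from -1.14 on replicate 1 to -0.25 on replicate 3 (-0.63, limma adjusted p = 0.12). Ctsg, a serine protease of azurophil granules, stood at -0.71, -0.95 and -0.05, nearly at 0 on replicate 3, and its second feature at -0.73, -0.90 and -0.03. Lyz2, the lysozyme of myeloid cells, stood at -0.54, -0.78 and -0.28, and Il1r2, the decoy receptor of interleukin-1, at -0.60, -0.67 and -0.38. Padi4, which citrullinates histones in neutrophils, stood at -0.64, -0.33 and -0.25, and Prtn3, another granule protease, at -0.58, -0.22 and -0.08. Replicate 3 was closest to 0 in all of these. Mmp9, a gelatinase of osteoclasts and neutrophils, stood at -0.61, -0.48 and -0.32 (limma adjusted p = 0.086).

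The other genes that fell have varied roles. Cish, the cytokine-induced inhibitor of STAT5 signalling, stood at -0.61, -0.52 and -1.43 and fell by 0.81 (-0.81, limma adjusted p = 0.032, channel reading -0.42). Replicate 3 was far below the others. Ier3, an immediate early gene of stress and survival, stood at -0.69, -0.59 and -0.59 and fell by 0.63 (-0.63, limma adjusted p = 0.026, channel reading -0.10). It was the only one of 24 heat shock and immediate early genes that passed, and 10 of them were below 0 at an unadjusted p under 0.05, beside the 576 of 4775. The list median was -0.13, and 0.00 under the channel reading. Egr1, an immediate early transcription factor, spread from -0.22 to -1.73 (-0.88, limma adjusted p = 0.10) with the extreme value on the dye-swapped replicate 2, and Dusp1, a phosphatase of MAP kinases, stood at -0.51, -0.52 and -0.23 in its first feature. Cep19, a centrosomal protein, fell by 0.65 (-0.65, channel reading 0.01). Zbtb7b, the T helper cell factor ThPOK, and Gda, the guanine deaminase, each fell by 0.54 (-0.54, channel reading 0.02 and -0.15), Rab11fip4, a Rab11 effector, by 0.48 (-0.48, channel reading -0.15), and Glo1, the glyoxalase that clears methylglyoxal, by 0.46 (-0.46, channel reading -0.16).

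Among the lists of cell processes, cell cycle genes gave 0 calls. Of 46 measured cell cycle genes 28 were below 0 on all 3 arrays (60.9%, beside 28.2% for all named genes), and the list median was -0.13, with -0.17, -0.16 and -0.18 on replicates 1, 2 and 3 as deposited and -0.06 under the channel reading. Only 3 had an unadjusted p under 0.05, and the median was 0.00 without old replicate 2. Ccne1, the cyclin of entry into S phase, gave the smallest p at -0.67, -0.44 and -0.63 (-0.50, limma adjusted p = 0.17). Of 51 oxidative phosphorylation genes 23 were below 0 on all 3 arrays (45.1%) and 0 passed, with a list median of -0.15 that turned to 0.05 under the channel reading. Cox7a2, a subunit of cytochrome oxidase, stood at -0.28, -0.41 and -0.26. The 46 cytosolic ribosome genes had a median of -0.03 (channel reading 0.01) and 0 passed.

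Receptors and mediators of sex steroid and bone signalling showed no call except for Lef1, Igfbp5 and Il7r in their lists. Of 11 measured sex steroid genes 0 passed and 0 had an unadjusted p under 0.05. Esr1, the oestrogen receptor alpha, stood at -0.41, -0.20 and 0.12 in its first feature. Tnfsf11, the osteoclast factor RANKL, stood at -0.18 and -0.04 in its features and Igf1, the growth factor, at -0.10 and -0.01, each with arrays on both sides of 0 or with a value missing. Of 24 genes of the IGF, BMP and TGF-beta list Igfbp5 alone passed, and Tgfbi, a matrix protein induced by TGF-beta, stood at -0.75, -0.37 and -0.28 (limma adjusted p = 0.11). Of 24 inflammatory genes Il7r alone passed. Ccl4 came close, at 0.26, 0.60 and 0.67 (limma adjusted p = 0.053), and Csf1, the macrophage growth factor, stood at -0.60, -0.14 and -0.37 (0.17). Of 11 osteoclast, 7 erythroid, 8 megakaryocyte, 5 stem and progenitor, 9 endothelial and 16 interferon response genes 0 passed. The closest was Kdr, the VEGF receptor of endothelium, above 0 on all 3 arrays in both features (0.57, 0.37 and 0.48, and 0.61, 0.29 and 0.51), with limma adjusted p values of 0.066 and 0.073. Genes of T and NK cells (4 measured) and of cartilage (2 measured) gave 0 calls, and 0 genes of the mast cell list were measured.

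Under the channel reading the genes with the smallest p were others. Ppp1r10, a regulatory subunit of protein phosphatase 1, stood at 0.40, -0.40 and 0.62 as deposited and at 0.46 under the channel reading (SE 0.10, limma adjusted p = 0.97). The linker histone H1f3 gave 1.57, -0.96 and 0.22 as deposited and 0.96 under the channel reading, and Thbs2, a matrix thrombospondin, gave 0.02, 0.73 and -0.67 and -0.55. In each of these genes replicates 2 and 3 had opposite signs. Beyond 0.5 in one direction on all 3 arrays lay 40 of 8382 features (0.477%) as deposited, 34 above 0 (0.406%) and 6 below 0 (0.0716%), and 1 (0.0119%) after replicate 2 was turned. One sign on all 3 arrays was kept by 3379 (40.3%) as deposited, 1313 above 0 (15.7%) and 2066 below 0 (24.6%), and by 1202 (14.3%) after turning.

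**Figure D4:**
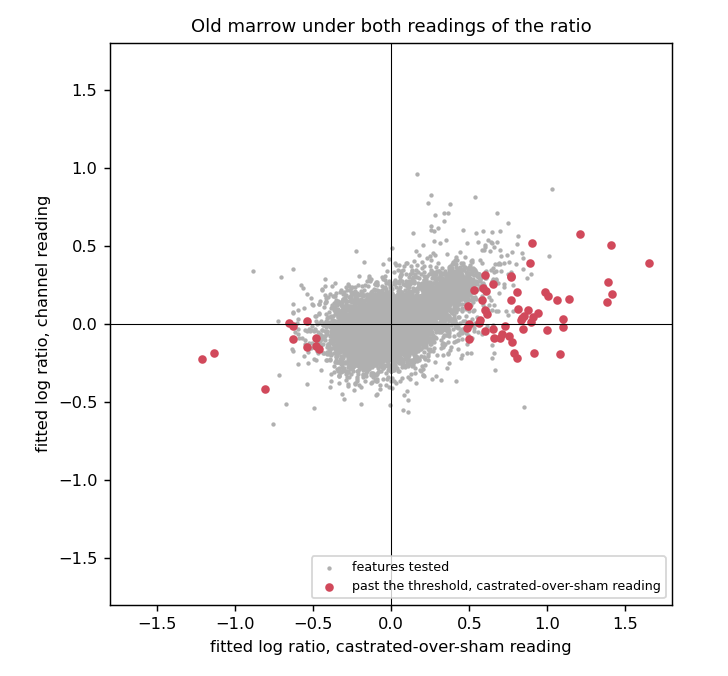
The fitted old marrow log ratio of each tested feature under the castrated-over-sham reading (horizontal) is plotted against that under the channel reading (vertical), with the 65 features that passed in the former in red. The red points spread from -1.21 to 1.65 along the horizontal axis and lie within 0.57 of 0 on the vertical one.

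The old response was set against that of young marrow and of young bone, to ask which parts of it differed. Of the 65 features that passed in old marrow, 60 had the sign of the young marrow mean and 61 that of the young bone mean. The share of like signs over all features is not given here, so these counts are a description only. At an unadjusted p under 0.05 by limma, 27 of the 65 differed from young marrow and 27 from young bone under the castrated-over-sham reading. Under the castrated-over-sham reading limma called 0 of 8885 features (0%) for the difference from young marrow, with 1292 unadjusted p values under 0.05, and under the channel reading it called 0, with 67. Without old replicate 3 the difference from young marrow held 885 under the castrated-over-sham reading and 0 under the channel reading. The difference from young bone held 1 feature (0.0113%), Xist, with 589 at an unadjusted p under 0.05, and 0 under the channel reading, with 363. Under the castrated-over-sham reading the difference from young bone held 31 without old replicate 3, and 0 without any other single array. All 3 groups share the fit, but no array belongs to more than 1 group.

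Xist stood lower in old marrow than in young bone by 1.13 (difference -1.13, SE 0.13, limma adjusted p = 0.045), with adjusted p values from 0.013 to 0.76 over 18 alternative settings, 6 of which kept the call. From young marrow it differed by -0.86 (limma adjusted p = 0.15). Mgp differed by -1.25 from young bone (limma adjusted p = 0.14) and by -1.01 from young marrow (0.24). The Malat1 feature that passed in old marrow stood near 0 in young marrow (0.07, -0.12 and -0.02) and at 0.55, 0.46 and -0.22 in young bone. Its difference from young marrow was 1.31 (SE 0.17, limma adjusted p = 0.054), just short of the threshold. The other Malat1 features differed by 0.47 and 1.13 (limma adjusted p = 0.34 each). Spink5 also fell just short of the threshold, at 0.97 (SE 0.13, limma adjusted p = 0.054). Spink5 was below 0 on all 3 young marrow arrays (-0.11, -0.25 and -0.10). The Plcb1 feature that passed in old marrow stood at 0.06 and -0.17 on the young marrow arrays that measured it, and its difference of 0.71 did not pass. The other Plcb1 features differed by 0.76 and -0.08 and did not pass either. The lipid genes were higher in old than in young marrow by 0.77 for Scd1, 0.53 for Fabp4 and 1.21 for Car3, with a limma adjusted p of 0.34 each, so none passed. The Strn3 feature that passed in old marrow was higher by 0.87 (limma adjusted p = 0.15), and the other by 0.06 (0.92).

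In the B lineage list 0 of 24 features differed between old and young marrow at an unadjusted p under 0.05 by limma, beside 1292 of all 8885. From young bone 5 features of 4 genes differed, beside 589 of all 8885. The difference from young marrow was 0.01 for Vpreb3 (SE 0.13), and young marrow means were 1.08 for Pou2af1, 1.14 for Fcrla and 0.98 for Cd79b beside old fitted values of 1.10, 1.10 and 1.06. Against young bone the old value was higher for Cr2 (0.40 beside a mean of -0.22, unadjusted p = 0.0018 by limma), Bank1 (0.78 beside -0.02, 0.012), Fcer2a (0.38 beside -0.07, 0.016, and 0.28 beside -0.17, 0.019) and Pou2af1 (1.10 beside 0.72, 0.018), and 0 of these passed after adjustment. The list medians on the deposited values were 0.46 in young marrow and 0.38 in young bone. A difference that misses the threshold does not show that the groups respond alike. Among genes off the list, Sox4 was lower in old than in young marrow, by 0.42 (difference -0.42, unadjusted p = 0.018 by limma), and did not pass. Foxo1 differed from young marrow by -0.31 and -0.33 in some features (unadjusted p = 0.03 and 0.036 by limma) and by 0.04 and -0.02 in the others. Swap70 was higher in old marrow by 0.37 (unadjusted p = 0.026 by limma). Neither Foxo1 nor Swap70 passed after adjustment.

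**Figure D5:**
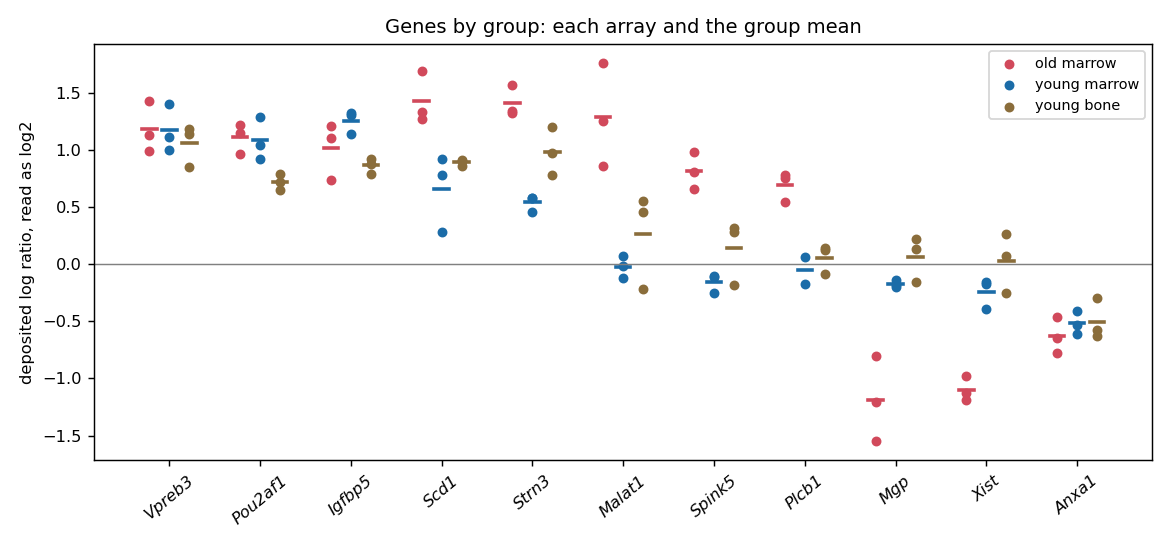
Points give the deposited log ratio (read as log2) of every array and bars the group mean, for 11 genes in old marrow, young marrow and young bone. Each gene is shown by its feature with the smallest limma p in old marrow. Vpreb3 and Pou2af1 overlap between old and young marrow. The old values plotted for Scd1, Strn3, Malat1, Spink5, Plcb1, Mgp and Xist lie apart from all young arrays. The features of Strn3, Malat1 and Plcb1 that are not plotted overlap with young arrays.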

How the data were processed

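The authors deposited 1 table of log ratios for 11552 features on 9 dual-channel arrays, read here as log2; their log base, direction, background treatment and normalization are not given in the sources used here. No scaling was added. Platform annotation gave 1 gene for 8050 features, several for 672 and none for 2830, and only the first were named. Features with values on at least 2 arrays per group and at least 1 dye-swapped array (8885) entered a limma 3.58.1 fit (R 4.3.3) of all 9 arrays that estimates a mean for each group and 1 dye effect shared by all arrays, which leaves 5 residual degrees of freedom. Each pattern of missing values got its own standard errors. Numbers printed as SE come from this fit, and its code was tested on simulated data. In a list a gene's value is the mean of its features, and a gene counts as passed if any of its features did.

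Named genes were the 15 largest rises and all falls past the threshold. To these were added members of each gene list with the smallest p or past the threshold. The smallest p values of each difference and reading and other features of these genes were added too. Vpreb3, Strn3, Igfbp5, Scd1, Tnfsf11, Igf1 and Esr1 were named as well. Some, but not all, other genes past the threshold were added after their values were seen, for a role in lymphoid cells. The members and lists were chosen with earlier results of these data known. Alternatives were other dye terms, samples, weights, scalings, filters, the replicate number as a block, and leaving out each array. Replicate numbers were checked for pairing by the correlation of same-numbered arrays' deviations from their group means: under the castrated-over-sham reading these were 0.575, 0.26 and 0.30 between old and young marrow, and -0.0423, -0.104 and 0.371 between old marrow and young bone. By the rule applied (every pair over 0.1) the numbers paired old with young marrow arrays under that reading, although the mice are of different ages. Under the channel reading the values for young marrow were 0.22, 0.0767 and 0.51, which do not meet the rule. The dye-swapped array has the same number in both marrow groups. Same-numbered marrow arrays thus share a dye orientation, and these correlations cannot tell that from pairing.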

Additional observations from a re-analysis of the deposited data

Results flagged for a closer look

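Xist was flagged because its castration response differed between old marrow and young bone by the test of the difference itself. Under the castrated-over-sham reading the difference was -1.13 (SE 0.13, n = 3 arrays a group, limma adjusted p = 0.045), with 3 of 3 old arrays below all 3 young bone arrays. Under the channel reading it was -0.54 and did not pass.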

How the results depend on the processing

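The count of 65 features in old marrow under the castrated-over-sham reading was 9 on the old arrays alone, 13 on the unswapped arrays alone, 328 with array weights and 13 with the arrays scaled to one spread. It was 10 to 1332 when 1 array was left out. With array weights 57.3% of the calls lay above 0, against 83.1%. Without a dye term it was 90, with centring 85, with robust moderation 65 and with the replicate block 69. Of 52 called features with a gene name, the block kept 42, and a Foxo1 feature could not be fitted with it. In all 19 alternatives 7 features kept the call: Strn3, Scd1, Xist, Vpreb3, Pou2af1, the first feature of Aff3 and an unnamed one. No named call changed sign. The difference from young marrow, 0, became 481 with array weights, 2 with scaling and 2 on features with all 9 arrays, stayed 0 with the replicate block, and ran from 0 to 885 with 1 array left out. The difference from young bone, 1, became 0 without a dye term, 0 on the unswapped arrays, 2 with array weights and 0 with the replicate block, where replicate numbers did not pair the arrays, and ran from 0 to 31 with 1 array left out. Under the channel reading old marrow gave 13 on the unswapped arrays, where both readings are identical, and the difference from young bone gave 2 with array weights. The cause of these changes was not tested. The limits are 3 arrays, 1 of them of wide spread, an unstated ratio direction and unknown signal over background.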
